A study of Mus musculus with 247 samples.

Results

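The replication-dependent histone genes were described across 6 tables of a study of GPS2 in RAW264.7 cells, a mouse macrophage line. Members were the sites whose nearest annotated gene has a symbol starting with Hist1h, Hist2h, Hist3h or Hist4h, and the genes with those symbols in the RNA table. They came to 70 of 73206 ATAC-seq sites, 38 of 52093 PU.1 sites, 44 of 58888 JunB sites, 48 of 26718 MED1 sites and 34 of 23360 RNA polymerase II (Pol II) sites, which is 234 of 234265 sites in all, and to 50 of 14378 genes. The study asks how the corepressors GPS2 and SMRT act at enhancers when macrophages are activated. Its 247 samples include 46 with values in these tables, and the remaining samples were not analysed here.

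All groups were RAW264.7 cells, either wild type (WT) or GPS2 knockout (KO) made with CRISPR, and the labels do not say whether the knockout is 1 clone. RNA-seq of polyadenylated RNA held WT and KO cells, untreated or given lipopolysaccharide (LPS, a bacterial cell wall component) at 10 ng/ml for 6 hours, with 4 libraries per group. ATAC-seq, which cuts open chromatin with a transposase, held untreated control and KO cells, with 3 libraries each, and the control is labelled as the control of the CRISPR knockout. ChIP-seq of the macrophage factor PU.1 and of the AP-1 subunit JunB held WT and KO cells, untreated or after 2 hours of LPS, with 2 libraries per group. ChIP-seq of the Mediator subunit MED1 and of Pol II held WT and KO cells after 2 hours of LPS only, with 2 libraries per group.

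Replication-dependent histone genes encode the linker histone H1 and the core histones H2A, H2B, H3 and H4 that package newly copied DNA, and they are transcribed mainly in S phase. They lie in clusters, often as pairs that start from a shared interval, and have short messages without introns. Most of these messages end in a conserved stem-loop, bound by SLBP, in place of a poly(A) tail, so poly(A) selection leaves out most of them and more weight is given here to the sites. NPAT is the coactivator that acts at these clusters in the cell cycle, and E2F, Oct-1 and the CCAAT-binding factor NF-Y are known to act at histone promoters.

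The sequences below are those of the sites on which the results turn, read from the NCBIM37 (mm9) genome, the build of the deposited tables. In the first 4, which are shown because they lie at the sites with the highest ATAC-seq value, the largest falls and a rise, capitals mark CCAAT, the octamer ATTTGCAT, TATAAA and the E2F letters TTTCGCG on either strand. The plus-strand interval between Hist2h2ac and Hist2h2be is chr3:96024804-96024994, that between Hist1h2ah and Hist1h2bk is chr13:22127513-22127689, the 250 bases before Hist1h1d (plus strand) are chr13:23646651-23646900, and those before Hist1h4c (minus strand) are chr13:23790324-23790573.
Hist2h2ac-Hist2h2be: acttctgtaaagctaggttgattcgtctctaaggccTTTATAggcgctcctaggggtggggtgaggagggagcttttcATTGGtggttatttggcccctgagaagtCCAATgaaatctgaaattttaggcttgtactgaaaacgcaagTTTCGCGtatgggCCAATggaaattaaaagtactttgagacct
Hist1h2ah-Hist1h2bk: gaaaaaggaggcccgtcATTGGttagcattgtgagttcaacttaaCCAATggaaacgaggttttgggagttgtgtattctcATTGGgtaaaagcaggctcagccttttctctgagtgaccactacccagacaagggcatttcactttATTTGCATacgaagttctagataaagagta
Hist1h1d: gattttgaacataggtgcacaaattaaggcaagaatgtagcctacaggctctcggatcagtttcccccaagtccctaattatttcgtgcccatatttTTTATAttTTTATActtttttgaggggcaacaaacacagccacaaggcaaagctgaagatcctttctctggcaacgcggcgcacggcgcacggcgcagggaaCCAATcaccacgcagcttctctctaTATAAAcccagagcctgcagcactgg
Hist1h4c: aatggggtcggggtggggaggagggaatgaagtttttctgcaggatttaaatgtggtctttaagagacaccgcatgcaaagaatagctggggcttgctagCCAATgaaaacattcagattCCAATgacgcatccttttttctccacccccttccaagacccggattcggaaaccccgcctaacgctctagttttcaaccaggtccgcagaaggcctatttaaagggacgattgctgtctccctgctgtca
In the central 200 bases on the plus strand of a PU.1 site that was lower in KO cells with LPS (chr13:23792725-23792924), capitals mark the AP-1 letters TGANTCA and the PU.1 letters GAGGAAGT on either strand.
PU.1 site near Hist1h4c: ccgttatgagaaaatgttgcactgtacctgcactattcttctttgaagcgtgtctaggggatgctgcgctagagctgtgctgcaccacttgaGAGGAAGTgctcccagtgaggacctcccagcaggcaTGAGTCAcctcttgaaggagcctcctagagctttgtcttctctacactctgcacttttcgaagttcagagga
The last pair shows, for the linker genes Hist1h1a and Hist1h1b, the stem-loop at the end of the gene in capitals.
Hist1h1a end: cccaacGGCTCTTTTCAGAGCCaccaacat
Hist1h1b end: cccaaaGGCTCTTTTCAGAGCCacctagag

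The member sites fell in 8 loci, with 5 on chromosome 13 and 1 each on chromosomes 3, 6 and 11. The longest was chr13:23602382-23861431, which spanned 259.0 kb with 29 annotated histone genes. By number of genes, chr13:21801848-21948213 came next with 19, followed by the Hist2 locus at chr3:96017464-96083120 with 10. The GENCODE annotation of the same build holds 70 histone genes with these symbols, of which 67 are protein coding and 3 are pseudogenes. Their starts lay inside an ATAC-seq site in 60 of 70 cases, inside a MED1 site in 62 and inside a Pol II site in 61. PU.1 and JunB covered fewer of them, with 9 and 12 starts, but their member sites were narrower. The median width was 293.5 bases for PU.1 and 304 for JunB, against 1214 for ATAC-seq, 2723 for MED1 and 4845 for Pol II. Within 1 kb of a start lay 19 of 38 PU.1 and 22 of 44 JunB member sites.

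Promoters of the cluster held 4 of the 6 motifs searched more often than promoters at large. RefSeq promoters (GRCm38.p6, 250 bases before to 50 after the start, both strands searched) were matched for 62 of 69 member symbols and gave 63 promoters. CCAAT stood in 54 of them (85.7%, against 37.4% of all 32851 promoters), TATAAA in 35 (55.6% against 13.6%), ATTTGCAT in 14 (22.2% against 1.74%) and TTTCGCG in 13 (20.6% against 0.849%). Histone classes differed in these letters. CCAAT was in all 6 H1, 18 H2A, 17 H2B and 10 H3 promoters and in 3 of 12 H4 promoters. The octamer was in 7 of 18 H2A and 7 of 17 H2B promoters and in no H1, H3 or H4 promoter. TTTCGCG had the same restriction, with 8 H2A and 5 H2B promoters. Divergent H2A and H2B pairs can share an interval shorter than the 250 bases searched, such as the 177 bases between Hist1h2ah and Hist1h2bk. A match there can count for both genes, so these promoters are not independent. The AP-1 letters were in 3 of the 63 (4.76% against 7.81%) and the PU.1 letters in 0 (against 3.2%). At the gene ends, TTTCAGAGC was found in the 200 bases centred on the annotated end in 27 of 67 histone genes (40.3%), against 72 of all 22225 genes (0.324%). It was present at Hist1h2aa and absent at Hist1h1c, Hist1h2bc, Hist2h2be and Hist3h2a. These matches describe letters, and a missing match says only that the letters are not in the window.

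GPS2 RNA was checked first. Gps2 ranged from 492.3 to 548.0 normalised reads (reads per 10000000 mapped reads) in untreated WT libraries and from 371.4 to 399.5 with LPS. In KO libraries it ranged from 145.3 to 153.8 untreated and from 66.29 to 84.9 with LPS, so the groups did not overlap. Of 8 macrophage markers, 7 reached 10 normalised reads in every group, and the summed level of the 8 was 89130 to 98620 in untreated WT, 119500 to 125200 in untreated KO, 43990 to 48340 in WT with LPS and 61770 to 64750 in KO with LPS. Lyz2 weighs most in this sum, at 53420 to 62040 in untreated WT and 18500 to 27760 in WT with LPS. Taken singly, 5 markers were higher and 3 lower with LPS in WT (limma, adjusted p under 0.05), where 34.2% of all genes were higher and 36.2% lower. Of 5 lymphocyte and 5 fibroblast or epithelium markers, 1 of each had a row in the RNA table, at no more than 0.562 and 1.32, and 1 of 4 granulocyte markers had one. That marker, S100a8, moved with the groups, at no more than 0.658 in untreated WT, 2.895 to 7.548 in untreated KO, 3.134 to 14.87 in WT with LPS and 12.76 to 17.41 in KO with LPS, and its part in the results was not tested. RNA library 4 of WT with LPS stood apart from its group (chi-square per gene from 99.05 to 138.4, against 1.241 to 9.577 for all other RNA pairs within a group). Mapped reads ran from 12094942 to 22968587 in RNA-seq, from 4038814 to 7108592 in ATAC-seq and from 8096466 to 16006472 in ChIP-seq. The 2 ChIP-seq libraries of each group differed by no more than sampling noise (chi-square per site from 0.823 to 1.158), so they count as 1 sample and their tests compare libraries, not independently grown cells. The share of mapped reads inside sites also differed between groups, from 46.43% in a WT to 14.18% in a KO library for Pol II. Each ChIP-seq and RNA-seq comparison was therefore scaled to the bulk of sites or genes with a trimmed mean of M values (TMM) factor. No such factor was applied to the deposited ATAC-seq values.

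Pol II at the histone clusters was lower in KO than in WT cells after LPS, relative to the other Pol II sites. Reads in the 34 member sites made up 2.32% and 2.31% of all reads in Pol II sites in the WT libraries and 1.03% and 1.01% in the KO libraries, while these sites hold 0.327% of the covered length. Per kilobase, they carried 473.3 and 455.2 normalised reads in WT, against 66.66 and 64.64 over all sites, and 64.29 and 63.77 in KO, against 20.36 and 20.65. The site-by-site plot of Pol II shows the same values in each library. In a bulk sample, fewer cells with Pol II at these genes and less Pol II per cell cannot be told apart.

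**Figure D1:**
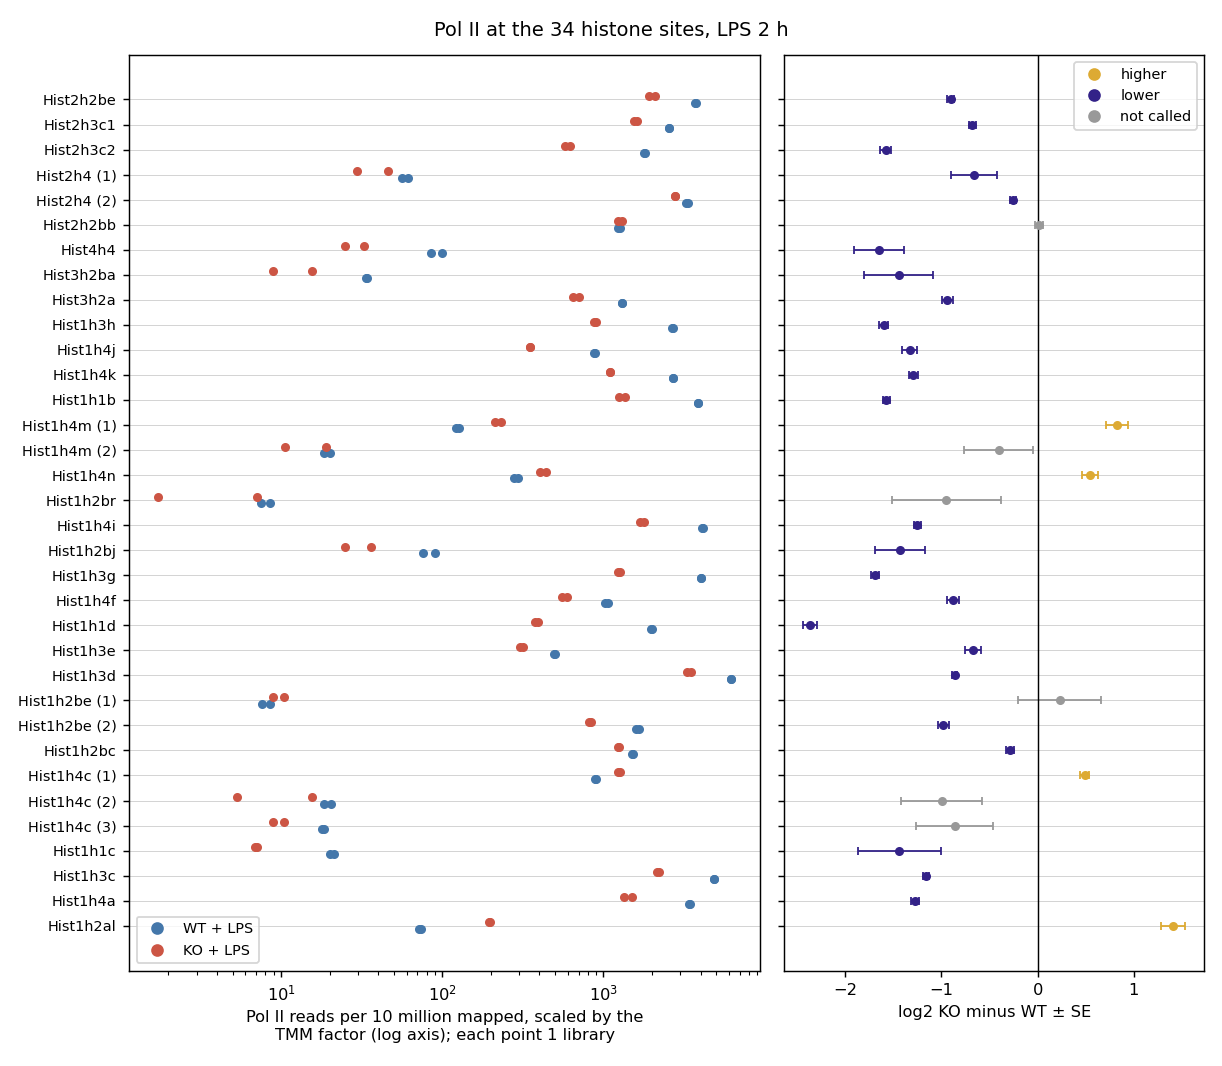
Pol II at the 34 histone sites after 2 hours of LPS, in order of chromosomes 3, 6, 11 and 13 and position. Left, reads per 10000000 mapped reads divided by the TMM factor, on a log axis, with 1 point per library. Right, the log2 difference KO minus WT with its standard error. The KO points lie left of the WT points at the 24 lower sites, with the largest gap at Hist1h1d, and right of them at the 4 higher sites.

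Of the 34 member sites, 24 were lower and 4 higher in KO cells (limma with precision weights, adjusted p under 0.05), where 21% of all 23081 tested sites were lower and 23.3% higher. The median log2 difference of the members was -0.94, against -0.03 over all sites. Relative to library totals in place of the TMM factor, all 34 were lower, the median of all sites moved to -1.83 and the median of the members minus that of all sites was -0.94. The members were strong and wide sites, with a median width of 4845 bases against 1820. Among the 1154 sites in the top 5% by level, 57.2% were higher and 27.6% lower, while of the 21 members there 19 were lower and 1 was higher. Among the 4496 sites of at least 4 kb, the median difference was 0.02, and of the 19 members there 18 were lower, with a median of -1.16. Of the 21 sites with an annotated histone start inside, 18 were lower and 3 higher, and of the 13 without one 6 were lower and 1 higher.

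Among linker histone sites the largest difference was at Hist1h1d (chr13:23645803-23653107, 7304 bases, which includes the promoter printed above). Its deposited values were 3896 and 3725 normalised reads in WT and 191.4 and 207.3 in KO. On the scaled values that is 5.17-fold lower, a log2 difference of -2.37 ± 0.07 (SE, adjusted p = 1.23e-26), and the WT and KO libraries did not overlap. Hist1h1b (chr13:21865693-21882012), whose site also spans Hist1h3i, Hist1h2an and Hist1h2bp, fell by 1.57 ± 0.04 on the log2 scale. Its libraries read 7572 and 7332 in WT and 693.1 and 662.9 in KO. A weaker site 9562 bases from Hist1h1c fell by 1.44 ± 0.43, from 39.1 and 40.49 to 3.63 and 3.65.

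The wide sites over core histone genes fell together. The site from Hist1h4h to Hist1h3f, named for Hist1h3g (chr13:23621707-23639928, 18.2 kb, 5 histone starts), had 7899 and 7621 in WT and 647.7 and 648.3 in KO, a fall of 1.70 ± 0.04 on the log2 scale (adjusted p = 2.79e-30). The site with the highest level, named for Hist1h3d (chr13:23660535-23680191, 19.7 kb, 6 starts), read 12141 and 11687 in WT and 1792 and 1751 in KO, a log2 difference of -0.86 ± 0.02. All 7 sites nearest an H3 gene were lower, between -1.70 and -0.67. The site over Hist1h2ah, Hist1h2bk, Hist1h4i, Hist1h2ag and Hist1h2bj (chr13:22124539-22137682, 13.1 kb) read 8013 and 7833 in WT and 909.9 and 894.0 in KO, a log2 difference of -1.25 ± 0.03. Of 8 sites nearest an H2B gene, 5 were lower, and of 14 nearest an H4 gene 8 were lower and 3 higher.

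Falls were also seen outside the Hist1 clusters. In the Hist2 locus 5 of 6 sites were lower, from -1.58 ± 0.06 at Hist2h3c2 to -0.25 ± 0.03 at the site over Hist2h4, Hist2h3b and Hist2h2bb. The site over Hist2h2ab, Hist2h2ac and Hist2h2be (chr3:96018768-96034222, 15.5 kb), which includes the first interval printed above, read 7330 and 7010 in WT and 1067 and 1007 in KO, a log2 difference of -0.90 ± 0.03. The Hist3 sites (Hist3h2a and Hist3h2ba) and a site near Hist4h4 (chr6:136748553-136750455) were lower, by -0.94 ± 0.06, -1.45 ± 0.36 and -1.65 ± 0.26. The site near Hist4h4 does not reach the gene. The start of Hist4h4 lay in a Pol II site that is not a member and was not described here. In the other direction stood 4 sites: Hist1h2al (log2 1.41 ± 0.13), a copy at chr13:51298055-51298686 apart from the clusters that the deposited table annotates as non-coding, Hist1h4m (0.83 ± 0.11), Hist1h4n (0.55 ± 0.08) and Hist1h4c (0.49 ± 0.05). Under library totals each of these 4 was lower as well, at -0.46, -1.05, -1.33 and -1.39. At Hist1h4c (chr13:23787390-23791329, which spans Hist1h1t) the deposited values were 1746 and 1670 in WT and 647.7 and 652.0 in KO.

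For comparison, sites whose centre lay within 1 kb of a start were counted by gene list. This leaves out wide sites with a start further from the centre, such as the one at Hist1h1d. It kept 11 of the 34 member sites, while 21 have an annotated histone start inside. All 7 Pol II sites of S phase genes were lower, with a median log2 difference of -1.14, against 8 of 11 histone sites (3 higher, median -0.68) and 32.3% of all 7274 start sites (14.8% higher, median -0.25). Of 11 sites at genes for histone mRNA processing and transcription 6 were lower and 0 higher, and of 9 at histone chaperone genes 5 were lower and 1 higher. All 4 sites of replication-independent variants were lower.

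MED1 calls at the clusters went in both directions. Of 48 MED1 member sites, 8 were higher and 5 lower in KO cells after LPS, where 5.00% of all 26052 tested sites were higher and 2.00% lower, and the median of the members was 0.08 against -0.01 over all sites. Relative to library totals 38 of 48 were lower and none higher, since the median of all sites moved to -0.75. Reads in member sites were 0.537% of all reads in MED1 sites in both WT libraries and 0.520% and 0.521% in the KO libraries. Of the 8 higher sites, 6 were nearest to H4 genes (Hist1h4m, Hist1h4c, Hist1h4h, Hist1h4f, Hist2h4, Hist4h4). The other 2 were nearest to H2B genes (Hist2h2bb, Hist1h2be), and no H4 site was lower. H4, and then H2B, were also the most frequent classes among all 48 sites. The class is that of the nearest gene only. A wide site can span genes of other classes, and the Hist1h4h site does not reach the gene.

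The largest MED1 difference was at the pair Hist1h2ah and Hist1h2bk (chr13:22124872-22129600), whose shared interval is printed above with 3 CCAAT matches and 1 octamer. The site read 205.2 and 168.4 normalised reads in WT and 38.24 and 43.58 in KO. That is a log2 difference of -1.40 ± 0.16 (2.68-fold, adjusted p = 2.85e-10), and no WT library overlapped a KO library. The other lower sites differed less. They were Hist1h2bh (-0.44 ± 0.14), Hist1h2bf (-0.33 ± 0.06), Hist1h2bb (-0.27 ± 0.07) and the linker cluster site named for Hist1h3i (-0.23 ± 0.07).

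Among the higher sites, Hist1h4c (chr13:23789088-23791353) read 90.88 and 100.8 in WT and 106.9 and 122.4 in KO. Here the KO libraries lay above the WT libraries even before scaling, and the scaled log2 difference was 1.02 ± 0.13 (adjusted p = 1.05e-08). Hist1h4m, a narrow site with few reads (17.36 and 10.08 in WT, 19.12 and 17.6 in KO), was higher by 1.16 ± 0.35. Hist1h4c and Hist1h4m were among the 4 sites where Pol II was higher. The H4 site Hist1h4f was higher in MED1 (0.51 ± 0.14) and lower in Pol II (-0.88 ± 0.06) on the scaled values. Its deposited MED1 values were 93.94 and 116.9 in WT and 81.69 and 93.86 in KO. Relative to library totals the MED1 log2 difference there was -0.2559. Without KO library 1 or KO library 2, 8 of the 48 sites were called in place of 13. The 24 Pol II sites that were lower held 34 MED1 sites, of which 5 were lower and 3 higher, and 42 ATAC-seq sites, of which 12 were lower and 0 higher.

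**Figure D2:**
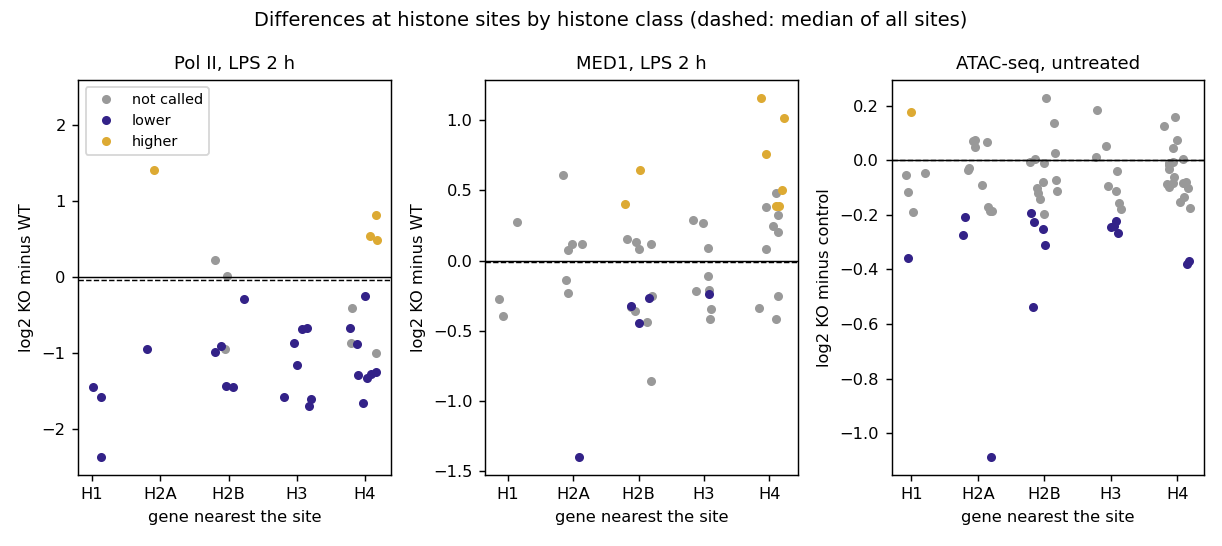
Log2 difference KO minus WT (Pol II and MED1, LPS 2 h) or KO minus control (ATAC-seq, untreated) at each histone site, grouped by the class of the nearest gene. Each point is 1 site, coloured by its call, and the dashed line is the median of all sites of the table. Pol II points lie mostly below 0 with 24 lower, MED1 points spread on both sides with 6 of the 8 higher ones in H4, and ATAC-seq points lie mostly just below 0.

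Open chromatin at the clusters was slightly lower in untreated KO cells. Of 70 ATAC-seq member sites 15 were lower and 1 higher than in control cells (limma, adjusted p under 0.05), where 3.16% of all 73206 sites were lower and 4.04% higher, and the median difference was -0.09 on the deposited log2 scale against 0.00 over all sites. Member sites were open sites, with 36 of 70 in the top 5% by level. Among those 36, 10 were lower and 0 higher (median -0.13), where 2.62% of all 3661 sites of that level were lower. Within 1 kb of a start, 12 of 40 members were lower, against 4.16% of all 11732 start sites and 0 of 17 at S phase genes.

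The interval between Hist1h2ah and Hist1h2bk again differed most (chr13:22126862-22128284). Its values were 8.07, 8.09 and 8.12 in control and 7.12, 6.88 and 7.02 in KO, a difference of -1.09 ± 0.07 (adjusted p = 5.59e-34), with no overlap. Its neighbours Hist1h2bj (chr13:22134380-22136239) and Hist1h4i (chr13:22132346-22133360) were lower as well. Hist1h2bj read 8.05, 8.04 and 8.05 in control and 7.53, 7.43 and 7.56 in KO, a difference of -0.54 ± 0.07. Hist1h4i fell by 0.37 ± 0.07, from 7.51, 7.51 and 7.45 to 7.20, 7.16 and 6.99. These 3 are the ATAC-seq sites inside the 13.1 kb Pol II site of this locus, and all 3 were lower there.

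Outside this locus, falls were also called at Hist1h4b (-0.38 ± 0.08), an intergenic site 5552 bases from the linker gene Hist1h1a (-0.36 ± 0.07) and Hist1h2bn (-0.31 ± 0.07). The site with the highest value, over Hist2h2ac and Hist2h2be, read 9.37, 9.34 and 9.30 in control and 9.26, 9.07 and 9.06 in KO, a small but called difference of -0.21 ± 0.06 (adjusted p = 0.0187). Hist1h1d, where Pol II fell most, was not called, with 8.27, 8.19 and 8.14 in control and 8.02, 7.94 and 8.07 in KO (-0.19). The 1 higher site lay 29839 bases from Hist1h1e, with 2.15, 2.13 and 2.13 in control and 2.33, 2.34 and 2.26 in KO (0.18 ± 0.04).

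JunB at the clusters gained less from LPS than JunB over all sites, and so did JunB sites at gene starts in general. The member sites held 0.0897% and 0.0866% of reads in JunB sites in untreated WT and 0.0681% and 0.0703% with LPS. In KO cells the share went from 0.0992% and 0.0952% untreated to 0.0568% and 0.0547% with LPS. The plot of shares of reads sets these values beside the other factors, and the untreated and LPS libraries did not overlap in either genotype. As deposited, JunB rose at most member sites with LPS, as it did at nearly all sites (median log2 difference of all sites 1.91 in WT and 2.12 in KO relative to library totals), so a lower call below is relative to the bulk of sites. As deposited, none of the 15 sites called lower in WT fell, and 4 of the 23 called lower in KO did (Hist1h1e, Hist1h4i, Hist2h2bb and Hist4h4).

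**Figure D3:**
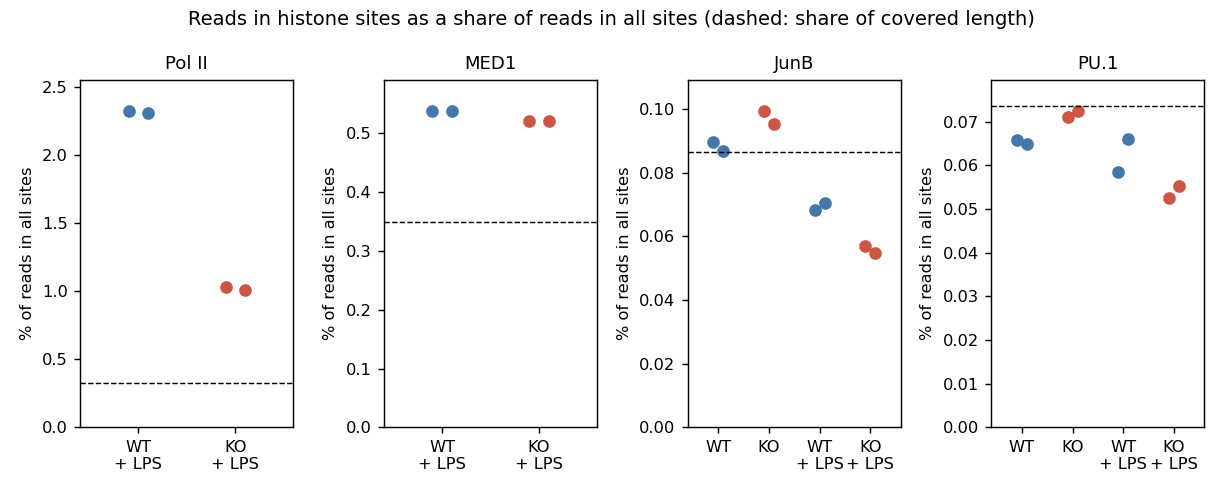
Reads in histone sites as a percent of reads in all sites of each table, with 1 point per library, WT in blue and KO in red, and a dashed line at the share of the covered length. Pol II shares lie above 2.3% in WT and near 1.0% in KO, MED1 shares differ little, and JunB and PU.1 shares are lowest in KO cells with LPS.

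On the scaled values 15 of 44 JunB member sites were lower and 3 higher with LPS in WT cells (19.6% of all 58810 sites lower, 17.6% higher), with a median of -0.29 against 0.03. In KO cells 23 were lower and 3 higher (18.5% and 18.1% of all sites), with a median of -0.79 against 0.13. Sites within 1 kb of a start were a closer background. In WT 8 of the 22 members there were lower, against 27.6% of all 7870 start sites (median -0.40 against -0.35). In KO 16 of the 22 were lower, against 57.2% of all start sites (median -1.34 against -0.99). Relative to library totals the direction turned, with 42 of 44 higher in WT, 33 of 44 higher in KO and none lower. Without untreated WT library 2, 8 sites were called in WT in place of 18. H4 sites, which are 15 of the 44 members, made up 7 of the 15 lower sites in WT and 10 of the 23 in KO. The lowest in both was at Hist4h4 (chr6:136752566-136752963), with 21.24 and 17.76 in untreated WT, 29.14 and 27.09 in WT with LPS, 25.86 and 21.97 in untreated KO and 19.14 and 17.45 in KO with LPS. The scaled log2 differences there were -1.44 ± 0.24 in WT and -2.47 ± 0.28 in KO. The opposite was seen near Hist2h3c2 (chr3:96041893-96042167), higher by 0.84 ± 0.21 in WT and 1.18 ± 0.31 in KO.

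Between genotypes JunB differed mainly with LPS. In untreated cells 3 of 44 sites were higher and 1 lower (5.97% of all sites higher, 2.82% lower), and without WT library 1 or 2 the number called was 1 or 0. With LPS 13 were lower and 2 higher (13.8% and 13.1% of all sites), and the median was -0.33 against 0.00. Without KO library 2 with LPS, 9 sites were called in place of 15. The largest fall was near Hist1h2ab (chr13:23841584-23841762), at 32.13 and 32.16 in WT and 8.61 and 9.1 in KO with LPS. The ratio of mean scaled values there was 3.28-fold, and the log2 difference was -1.51 ± 0.32. Next came Hist1h3g (-1.42 ± 0.23), Hist1h4k (-1.38 ± 0.26), Hist2h2ab (-1.31 ± 0.19) and Hist2h4 (-1.10 ± 0.18). Over all 44 JunB member sites, 14 held the AP-1 letters in their central 200 bases (31.8%, against 52.4% of all JunB sites).

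The difference between genotypes in the LPS response of JunB was tested directly. It was lower in KO cells at 5 of 44 sites and higher at 0 (3.17% and 2.25% of all sites), namely Hist1h1e (-2.06 ± 0.61), Hist2h2bb (-1.999 ± 0.46), Hist1h4k (-1.76 ± 0.46), Hist1h4i (-1.74 ± 0.50) and Hist1h4f (-1.53 ± 0.32). JunB sites within 1 kb of a start were often lower in this test, histone or not. There 5 of 22 members were lower, against 14% of all 7870 start sites (median -0.84 against -0.66). Hist1h4f (chr13:23643068-23643782) read 15.62 and 13.9 in untreated WT, 56.04 and 69.41 in WT with LPS, 24.19 and 32.37 in untreated KO and 48.81 and 38.69 in KO with LPS. Its KO libraries were the higher ones without LPS and the lower ones with it, on the deposited scale. The count depended on single libraries. It was 0 without untreated WT library 1 or 2, 3 without untreated KO library 1 or LPS-treated KO library 2, and 9 without untreated KO library 2.

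**Figure D4:**
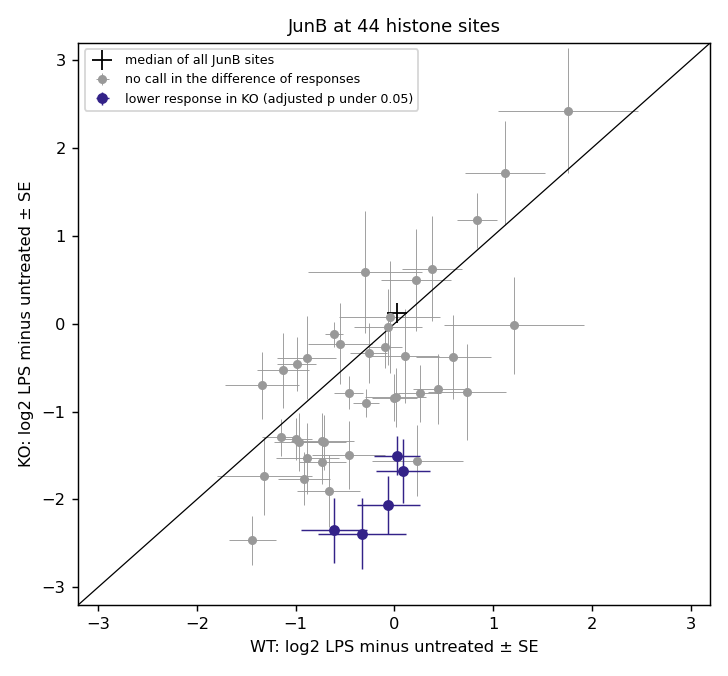
JunB response to LPS at the 44 histone sites on the scaled log2 values, WT on the horizontal and KO on the vertical axis, with standard errors and the line of equality. Most points lie below the line and below the cross that marks the median of all JunB sites, and the 5 sites with a called difference are in dark blue.

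PU.1 at the clusters changed at few sites. Member sites held 0.0658% and 0.0649% of reads in PU.1 sites in untreated WT, 0.0710% and 0.0724% in untreated KO, 0.0586% and 0.0660% in WT with LPS and 0.0525% and 0.0552% in KO with LPS, and the covered length share was 0.0736%. Of 38 sites, 1 was higher and 0 lower between untreated genotypes (4.65% of all 52009 tested sites higher, 3.18% lower), and 0 higher and 1 lower with LPS (4.90% and 3.90%). LPS in WT gave 1 higher and 1 lower (10.9% and 7.45%). LPS in KO gave 0 higher and 7 lower (10.8% and 8.15%), with a median of -0.52 against -0.01 over all sites. The test of the difference of the responses gave 0 higher and 2 lower (4.21% and 4.06%).

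Those 2 sites were Hist1h4c and Hist1h3g. The PU.1 site near Hist1h4c (chr13:23792694-23792955), printed above with 1 PU.1 and 1 AP-1 match, read 94.01 and 105.8 in untreated WT, 84.15 and 76.58 in untreated KO, 74.84 and 53.38 in WT with LPS and 31.81 and 30.8 in KO with LPS. Its response was lower in KO by -0.82 ± 0.24 (adjusted p = 0.0156), and with LPS it was lower in KO by -0.57 ± 0.20 (adjusted p = 0.05 after rounding, just under the threshold). The JunB site over the same bases (chr13:23792680-23793018) was lower in KO with LPS as well (-0.64 ± 0.17). The site near Hist1h3g (chr13:23630152-23630418), read 191.0 and 188.5 in untreated WT, 161.7 and 148.2 in untreated KO, 150.8 and 154.3 in WT with LPS and 94.45 and 98.17 in KO with LPS. Its response was lower in KO by -0.52 ± 0.14 (adjusted p = 0.00886).

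These PU.1 counts were not stable to single libraries or to scaling. Without LPS-treated KO library 1 or 2, 1 site in place of 7 was lower with LPS in KO, and without untreated KO library 1 it was 3. The site that differed between untreated genotypes lost its call without untreated WT library 1 or 2 or untreated KO library 2. The site that differed with LPS lost it without untreated WT library 1 or 2, WT library 1 with LPS or either KO library with LPS. With LPS in WT, 1 site in place of 2 was called without WT library 2 with LPS. The difference of responses was called at 0 sites without untreated KO library 1 or KO library 1 with LPS, and at 1 without library 2 of either LPS group. The genotype differences were called at 0 sites with a pseudocount of 0.5 in place of 1. Relative to library totals 10, 11, 27, 28 and 0 sites were lower in the 5 comparisons and none higher. Over the 38 sites, 7 held the PU.1 letters (18.4%, against 25.1% of all PU.1 sites) and 19 held CCAAT (50.0% against 21.2%).

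Polyadenylated RNA was measurable at few histone genes. Of 50 member genes 5 passed the filter on low values (Hist1h1c, Hist1h2aa, Hist3h2a, Hist1h2bc, Hist2h2be), and a gene can pass through the group where it is high. The other 45 stayed at or below 7.24 normalised reads in every library, and 38 of them had a mean under 1. Their summed reads came to between 14 and 74 per library. Near-identical copies are uncertain. Hist1h2bq and Hist1h2br, and Hist1h2ao and Hist1h2ap, had identical rows, and Hist2h2aa1 and Hist2h2aa2 differed in 1 library (0 against 0.435).

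LPS lowered 3 of these 5 genes in each genotype and raised none (limma, adjusted p under 0.05), where 36.2% of all 11791 tested genes were lower and 34.2% higher in WT and 36.1% and 31.5% in KO. Hist2h2be, an H2B gene, read 75.3, 74.4, 66.6 and 71.8 in untreated WT and 5.42, 5.64, 6.97 and 4.96 with LPS. In KO it read 66.7, 62.1, 53.3 and 54.4 untreated and 5.06, 6.96, 4.54 and 5.79 with LPS. Treated and untreated libraries did not overlap. The log2 differences were -3.01 ± 0.14 in WT (adjusted p = 9.28e-12) and -2.84 ± 0.14 in KO (adjusted p = 2.46e-11). The ratios of mean scaled values were 9.09-fold in WT and 8.07-fold in KO.

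The linker gene Hist1h1c read 83.6, 70.4, 82.4 and 69.2 in untreated WT and 11.7, 10.7, 16.98 and 27.6 with LPS. In KO it read 44.03, 53.6, 45.2 and 45.2 untreated and 14.04, 11.6, 17.5 and 11.6 with LPS. It fell by 1.76 ± 0.24 in WT and by 1.35 ± 0.24 in KO on the log2 scale. Its untreated KO libraries all lay below the untreated WT libraries, with a difference of -0.61 ± 0.24 that did not pass the test (adjusted p = 0.0631). In a fit of only the untreated groups, or without WT library 1, 2 or 4 with LPS, 2 genes in place of 1 were called lower in untreated KO cells.

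That 1 gene was Hist3h2a, an H2A gene, which read 28.3, 38.2, 24.2 and 34.4 in untreated WT and 21.4, 20.7, 19.4 and 16.8 in untreated KO (-0.55 ± 0.18, adjusted p = 0.0226). In this comparison 17.5% of all genes were lower and 18% higher. The call was lost without WT library 2 or 4 or KO library 4. With LPS 1 of 5 genes was lower in KO and none higher (22.1% of all genes lower and 22.1% higher), namely Hist1h2aa, the testis H2A gene, at 4.52, 7.52, 10.4 and 9.21 in WT and 3.93, 4.64, 2.59 and 1.65 in KO (-1.12 ± 0.31, adjusted p = 0.00773), where the groups overlapped by 1 library. No gene passed the limma test of the difference of the LPS responses (10.4% of all genes lower, 10.2% higher), and 0 had an unadjusted p under 0.05. Without library 4 of WT with LPS, 1 gene passed this test. Hist1h2bc did not pass in any comparison, with 34.7, 13.8, 17.8 and 23.1 in untreated WT and 13.2, 16.9, 12.4 and 15.1 in untreated KO.

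**Figure D5:**
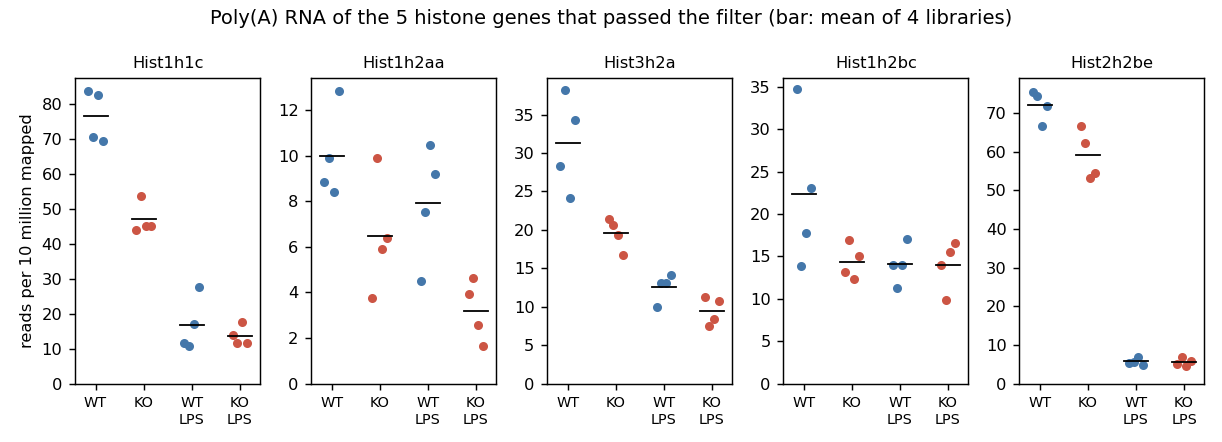
Deposited RNA values (reads per 10000000 mapped reads) of the 5 histone genes that passed the filter, with 1 point per library, WT in blue and KO in red, and a bar at the mean of 4 libraries. Hist2h2be and Hist1h1c are lower with LPS in both genotypes, with no overlap with the untreated libraries, while Hist1h2bc overlaps in every group.

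The genes that act with the histone clusters were measured in the same RNA. Over all 11791 genes tested, 36.2% were lower and 34.2% higher with LPS in WT, and 36.1% and 31.5% in KO. Between genotypes with LPS, 22.1% were higher in KO and 22.1% lower. All 18 S phase genes tested were lower with LPS in WT (median log2 difference -1.52) and in KO (-0.996), and 16 of 18 were higher in KO than in WT with LPS (median 0.49). Of 16 genes tested for histone mRNA processing and transcription, out of 18 listed, 8 were lower and 4 higher with LPS in WT, 6 lower and 5 higher in KO, and 8 higher and 2 lower in KO than in WT with LPS. Slbp, which binds the stem-loop, was lower with LPS in WT (-0.61 ± 0.08) and was 0.32 ± 0.08 higher in KO than in WT with LPS. Npat was lower with LPS in WT (-0.99 ± 0.16) and in KO (-0.70 ± 0.16). Of 15 histone chaperone genes 11 were lower and 1 higher with LPS in WT, and 6 lower and 1 higher in KO. With LPS in KO, the lower counts of the processing and chaperone genes were near the share of all genes. Of 11 replication-independent variants 7 were lower and 0 higher in KO than in WT with LPS (median -0.51). Without library 4 of WT with LPS, an alternative chosen after seeing the data, 7 were lower and 0 higher (median -0.36). In that fit 18 of 18 S phase genes and 8 of 16 genes for histone mRNA processing and transcription were higher in KO than in WT with LPS, with 0 and 3 lower, and 14 of 15 chaperone genes were lower with LPS in WT and 9 in KO. Npat was then 0.21 ± 0.07 higher in KO than in WT with LPS, against 0.43 ± 0.16 with all libraries. The RNA was taken at 6 hours of LPS and Pol II at 2 hours, so these values stand side by side and were not compared.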

How the data were processed

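Values were taken from tables deposited by the authors. RNA-seq and ChIP-seq values are reads per 10000000 mapped reads (a normalised value, not a raw count), from which whole reads could be recovered. ATAC-seq values were deposited by the authors on a log2 scale, and how they were transformed is not given in the sources used here. The submitters' processing notes name mm9, BWA, Bowtie2, HISAT2, HOMER, MACS2, DESeq2 and edgeR, with no versions. Another 8 columns of rescaled values were not used. Members and gene lists (S phase, histone mRNA processing and transcription, chaperones, replication-independent variants and cell type markers) were chosen with earlier results of these data known.

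The filter on low values asked for 10 reads, scaled to the median depth, in a number of libraries equal to the smallest group size, and for 15 reads in total. Features that passed were tested with limma 3.58.1 in R 4.3.3 on log2(value divided by a TMM factor, plus 1), each assay being fitted once over all its groups. Log2 differences on this scale understate the changes of low features. Folds in the text are ratios of mean scaled values without the added 1, so they can be larger than the log2 differences give. ChIP-seq fits used precision weights from the recovered reads, RNA-seq and ATAC-seq fits a trended, robust spread. ATAC-seq values were used as deposited. P-values are two-sided, adjusted by Benjamini-Hochberg over all features of a table, with a threshold of 0.05. Named sites were the 6 of highest mean, up to 5 called with the largest change in each direction per comparison, and called MED1 or Pol II sites within 1 kb of a start. For RNA, the 8 genes of highest mean took the place of the 6 sites. Chosen after their values were seen were Pol II at Hist1h1c, Hist3h2a and Hist2h4, ATAC-seq at Hist1h2bn and Hist1h1d, and the counts by class. The scripts were tested on simulated data. The labels do not say whether RNA-seq libraries come from separate cultures, so p-values measure the spread between libraries. Counting limits the precision of low sites. 1 JunB site is not reported here.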

Additional observations from a re-analysis of the deposited data

Results flagged for a closer look

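Hist1h1c RNA in untreated KO cells had 1 library far from the other 3. On the scaled values replicate 2 was at 47.2, and the others lay between 39.3 and 40.3. This was 1 of 20 groups examined, and chance flags about 1 in 20.

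The LPS response differed between WT and KO cells by the test of the difference itself at 7 sites, and at all 7 it was lower in KO cells. For PU.1 the log2 differences of the responses were -0.5152 at Hist1h3g and -0.8234 at Hist1h4c. For JunB they were -2.063 at Hist1h1e, -1.999 at Hist2h2bb, -1.763 at Hist1h4k, -1.737 at Hist1h4i and -1.532 at Hist1h4f. Each rests on 2 libraries per group that differ by no more than sampling noise.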

How the results depend on the processing

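Scaling to library totals in place of the TMM factor changed most. The number of members called became 2 for RNA in untreated cells, 10, 11, 27, 28 and 0 for PU.1 (untreated genotypes, genotypes with LPS, LPS in WT, LPS in KO, difference of responses), 4, 24, 42 and 33 for JunB (the first 4 of these), and 38 for MED1. Some called sites that are not named also turned in sign under library totals and are not listed. Among the named sites the sign turned for PU.1 at Hist1h3g (-0.2878 untreated, -0.3121 for LPS in WT). For JunB with LPS in WT it turned at Hist4h4 (0.5004), Hist1h2bq (0.5073), Hist1h2ah (0.3899), Hist1h4a (0.8325) and Hist1h4c (0.8037), and with LPS in KO at Hist2h2bb (0.003017) and Hist1h3g (0.06282). For MED1 it turned at Hist2h2bb (-0.1149), Hist1h4f (-0.2559), Hist2h4 (-0.3773) and Hist4h4 (-0.3769), and for Pol II at Hist1h2al (-0.4607), Hist1h4m (-1.048), Hist1h4n (-1.334) and Hist1h4c (-1.39). With only sites of at least 50 reads on average, which tests fewer sites, the numbers were 1 and 2 for PU.1 with LPS in WT and in KO, 0, 4, 5, 4 and 1 for the 5 JunB comparisons, and 15 for MED1. A pseudocount of 0.5 left 0 PU.1 sites between genotypes, untreated or with LPS. Without a filter 4 RNA members were called between untreated genotypes and 5 with LPS, and in a fit of only the untreated groups 2. The cause of these changes was not tested.

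Leaving out 1 library at a time gave 0 to 2 RNA members between untreated genotypes, 1 to 2 with LPS, 3 to 3 for LPS in WT and in KO, and 0 to 1 for the difference. It gave 11 to 14 for ATAC-seq, 0 to 1, 0 to 1, 1 to 2, 1 to 8 and 0 to 2 for PU.1, 0 to 4, 9 to 17, 8 to 19, 20 to 25 and 0 to 9 for JunB, 8 to 11 for MED1 and 26 to 29 for Pol II. The lone library left in a ChIP-seq group is assumed to vary like the other groups.

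Same-numbered libraries did not deviate together (correlations from -0.367 to 0.211), so the numbers were not taken as pairs. With the replicate block all 18 numbers of members called were within 1.5 times the main ones (Pol II 4 higher and 24 lower), and 1 of 86 named values lost its call, PU.1 at Hist1h4h with LPS in KO (-1.016, limma adjusted p = 0.0629). The alternatives with edgeR and DESeq2 were not run. Whole reads could be recovered from the deposited values, and limma was used on their log2 scale.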
